A study of Mus musculus with 16 samples.

Results

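The complement genes described here were adipsin (Cfd) and 8 further components measured in mouse mammary adipose tissue: Cfb, C3, C1qa, C1qb, C1qc, C4b, C2 and C7. They were chosen by name, and all 9 were among the 23179 genes listed and the 21218 genes tested. Total RNA was profiled by RNA-Seq in 16 libraries, 1 from each of 16 female C57BL/6NCrl mice, with 4 mice in each of 4 groups. The tissue was the 9th mammary fat pad, on the side opposite a tumor of E0771 cells, a mouse mammary cancer line, that had been injected into the 4th fat pad of every mouse 4 weeks before the end. The labels of the libraries also name that line, although the cells were injected into another fat pad than the one taken.

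All mice were of wild-type genotype, arrived at 8 weeks of age and went on a diet after 1 week. CON-LFD mice ate a low-fat diet (10% of kcal from fat) throughout. The other groups ate a high-fat diet (60% of kcal from fat) for 15 weeks and so had diet-induced obesity (DIO). After that time, DIO-HFD mice stayed on the high-fat diet and DIO-LFD mice changed to low-fat food. DIO-VSG mice had a vertical sleeve gastrectomy, the removal of a large part of the stomach, and then ate the low-fat diet, so the operation and the diet both separated them from DIO-HFD. Mice of the 3 other groups had a sham operation. Tumor cells were given 7 weeks after surgery, at 22 weeks on diet. The DIO-HFD libraries served in all 3 comparisons of the study, which are therefore not independent of each other.

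Complement is a cascade of plasma and tissue proteins that marks cells and debris for removal and draws in immune cells. C1q, made of A, B and C chains, recognizes targets and starts the classical pathway, in which C4 and C2 form an enzyme that cleaves C3. In the alternative pathway, factor B (Cfb) binds cleaved C3 and adipsin, which is factor D, cuts factor B to form a second C3-cleaving enzyme, while C7 belongs to the terminal complex that inserts into membranes. Adipose tissue is a known source of several of these proteins: adipsin is made by adipocytes, and C1q in tissues is made largely by macrophages.

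The members lie in 5 places of the mouse genome (GRCm38, positions of GENCODE M21, all protein coding). Cfd has 5 exons at chr10:79890853-79892655 on the plus strand, and the 8 others are on the minus strand. C1qb, C1qc and C1qa follow each other on chromosome 4 within 18675 bases, with gaps of 3616 and 2851 bases. C4b (chr17:34728380-34743882), Cfb (chr17:34856374-34862518) and C2 (chr17:34862604-34898265) lie on chromosome 17, and only 85 bases separate Cfb from C2. C3 (chr17:57203970-57228136) is on the same chromosome farther along, and C7 is at chr15:4988762-5063740. Assignment of reads is limited at these loci. The predicted gene Gm20547 overlaps Cfb and C2 on their own strand (0 to 340 normalized counts), Zbtb12 overlaps C2 on the other strand (397 to 685), and C4a is a close copy of C4b (163 to 405), so a part of the reads of C2, Cfb and C4b is uncertain.

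RefSeq promoter windows (GRCm38.p6) were matched by symbol for 5 of the 9 members, Cfd, C3, C1qb, C1qc and C7. The 250 bases before the start are given for 3 of them, 1 adipocyte product, the central component and 1 C1q chain, because these 3 genes had different patterns over the libraries. Capitals mark the motif matches, and the sequences run 5′ to 3′ on the strand of the gene.
Cfd, chr10:79890603-79890852, plus strand: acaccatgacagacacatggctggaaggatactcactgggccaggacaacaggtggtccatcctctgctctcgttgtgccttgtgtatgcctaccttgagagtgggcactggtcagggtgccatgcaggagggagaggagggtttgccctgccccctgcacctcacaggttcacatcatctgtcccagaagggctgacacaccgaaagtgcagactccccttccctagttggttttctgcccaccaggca
C3, chr17:57228137-57228386, minus strand: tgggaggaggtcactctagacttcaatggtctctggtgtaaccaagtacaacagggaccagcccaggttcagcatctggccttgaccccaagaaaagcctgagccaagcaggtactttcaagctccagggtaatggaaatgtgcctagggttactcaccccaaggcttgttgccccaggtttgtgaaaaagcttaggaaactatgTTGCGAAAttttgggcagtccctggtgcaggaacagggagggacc
C1qb, chr4:136886201-136886450, minus strand: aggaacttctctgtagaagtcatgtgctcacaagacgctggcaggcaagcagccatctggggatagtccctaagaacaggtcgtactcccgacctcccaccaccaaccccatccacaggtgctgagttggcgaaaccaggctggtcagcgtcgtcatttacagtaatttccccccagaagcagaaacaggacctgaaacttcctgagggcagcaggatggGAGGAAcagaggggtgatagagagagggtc
Both strands of these windows were searched for 6 motifs: TATAAA (the TATA box), GAGGAA (the core bound by PU.1), TTGCNNAA (C/EBP), the NF-kB motif, TTCNNNGAA (the GAS element) and CCAAT. The C1qb window held GAGGAA from base 30 to base 25 before the start, and 23.3% of the 32851 windows of this length in the reference held that motif. The C3 window held TTGCNNAA, as TTGCGAAA, from base 45 to base 38 before the start, against 9.56% of windows. The Cfd window held none of the 6, which says only that these letters are not in it. TATAAA, the NF-kB motif, TTCNNNGAA and CCAAT occurred in 12.4%, 4.65%, 7.02% and 33.8% of windows.

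Levels are normalized counts, that is reads divided by a size factor for each library, and libraries held 46907377 to 57610899 reads. Levels of different genes are compared per kb of the longest annotated transcript. On this scale the means over 16 libraries were 140636 for Cfd, 11468 for C3, 6617 for C4b, 5243 for C1qa, 4915 for C1qb, 4790 for C1qc, 3927 for Cfb, 1296 for C2 and 75.8 for C7. Cfd was above C3 in 16 of 16 libraries, Cfb above C2 in 16 and C2 above C7 in 16. C3 was above C4b in 13 libraries, C4b above C1qa in 10, C1qa above C1qb in 13, C1qb above C1qc in 11 and C1qc above Cfb in 10, so the order of these neighbours was not the same in every library, and their differences were not tested. By its count, Cfd ranked between the 14th and the 44th most abundant gene of a library and took 0.124% to 0.442% of its reads.

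The fat pad holds several kinds of cells, and libraries stood apart in their content. The defining markers of adipocytes were detected in every library (12 of 12 genes), as were those of mammary epithelium (8 of 8). The sum of 10 B cell markers was 346 and 1711 normalized counts in CON-LFD replicates 2 and 4, and 3582 and 1160 in DIO-HFD replicates 2 and 3. It was 21298 and 78298 in CON-LFD replicates 1 and 3, and 104790 and 65449 in DIO-HFD replicates 1 and 4. In DIO-LFD it was 19045 to 42071 and in DIO-VSG 71072 to 82560. Whether the inguinal lymph node was cut out is not stated in the methods. The sum of 12 macrophage markers ran from 17818 in CON-LFD replicate 2 to 123238 in CON-LFD replicate 4, with 45705 to 68913 in DIO-HFD, 44777 to 64002 in DIO-LFD and 30602 to 68621 in DIO-VSG. In tissue RNA, fewer cells of a type and less RNA per cell cannot be told apart.

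**Figure D1:**
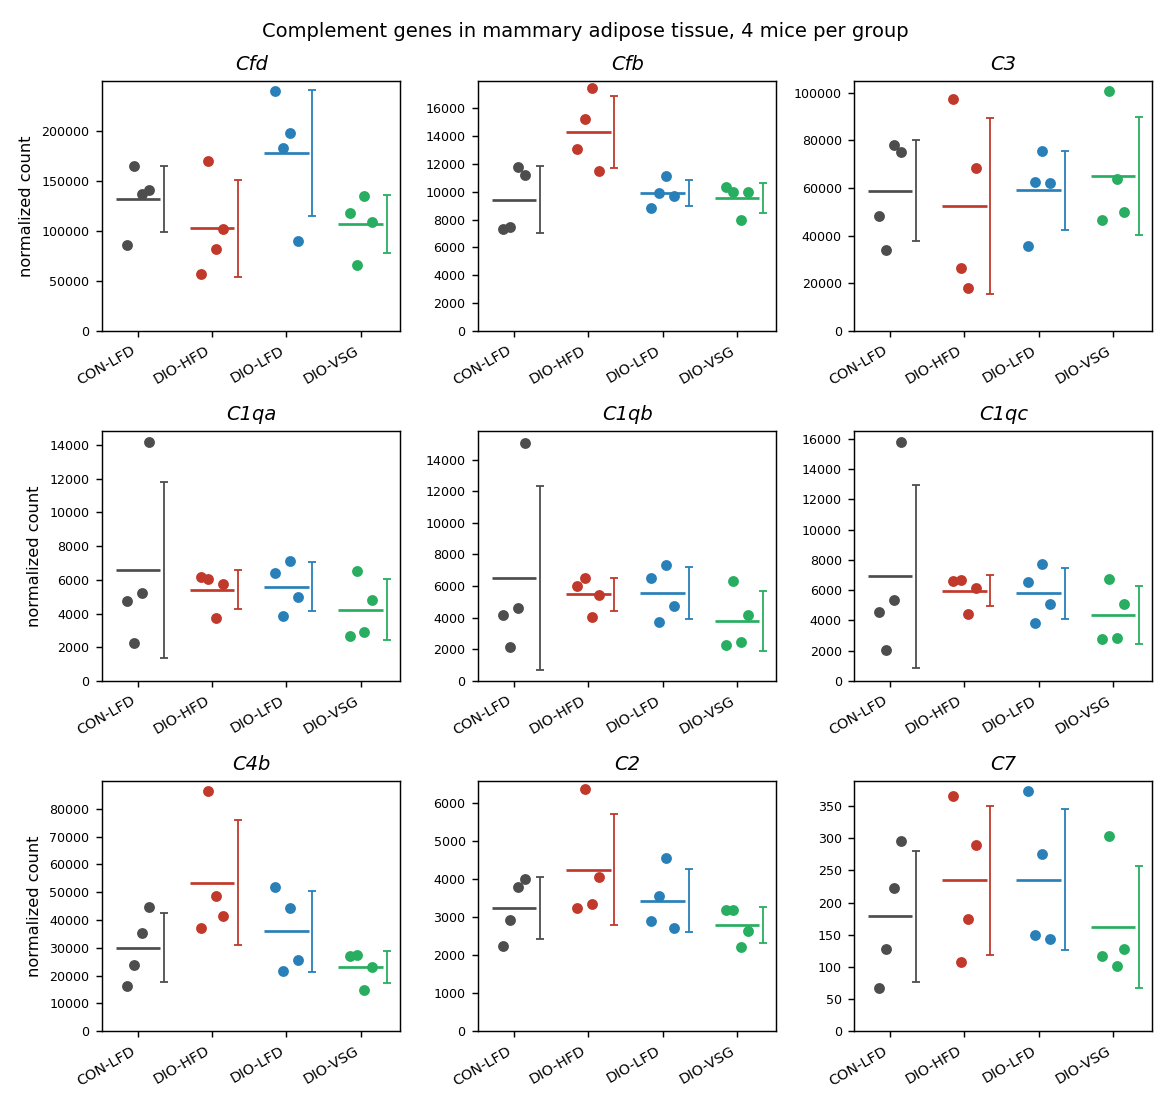
Normalized counts (linear axis from 0) of the 9 complement genes in each library, by group. Each point is 1 mouse, the horizontal line the mean and the bar beside it the SD (n = 4). All 4 DIO-HFD values of Cfb lie above the DIO-LFD and DIO-VSG values, and 1 CON-LFD library is far above the others for the 3 C1q chains.

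The first comparison, DIO-HFD with CON-LFD, asked what differed in obesity, and these groups also differed in the diet eaten at sampling, so obesity and high-fat food cannot be told apart. Cfb and C4b were the members with the clearest differences: their mean levels were 1.54-fold and 1.80-fold higher in DIO-HFD on the log2 scale of the test, while Cfd and C3 had lower means and the 3 C1q chains means close to equal. By limma, 0 of 9 members passed an adjusted P value of 0.05, against 0.0377% of all genes tested, and the unadjusted P value was below 0.05 for 2 of 9, both higher in DIO-HFD, against 12.9% of all genes. Marker lists of cells differed in the same comparison, with 0 genes past the adjusted threshold: adipocyte markers were lower for 11 of 12 genes (median −0.49), mammary epithelium for 8 of 8 (median −0.74), skeletal muscle for 8 of 8 (median −1.88), and hepatocyte markers for 4 of 5 (median −1.07). B cell markers were higher for 10 of 10 (median 1.16), T cell markers for 10 of 10 (median 0.62), macrophage markers for 9 of 12 (median 0.34), endothelial markers for 6 of 7 (median 0.33) and markers of follicular dendritic cells and lymph node stroma for 5 of 6 (median 0.65). The sum of the skeletal muscle markers was 29808 normalized counts in CON-LFD replicate 4. It was 2175, 4157 and 2583 in CON-LFD replicates 1 to 3 and 827 to 3164 in DIO-HFD. The part of these marker lists in the differences of the members was tested only through the scores given below. The same counts, 0 and 2 members, were given by limma-voom on the recovered reads. No member had groups that did not overlap, against 4.76% of all genes. The median log2 fold change was 0.15 over the members and 0.02 over all genes tested.

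The 2 comparisons of weight loss had DIO-HFD as the reference. In DIO-VSG, C4b had 0.44 times, Cfb 0.67 times and C2 0.68 times the DIO-HFD level, and these 3 genes, near each other on chromosome 17, were the members whose groups did not overlap. Of 9 members, 0 passed the adjusted threshold by limma (0% of all genes tested did) and 3 had an unadjusted P value below 0.05, all lower, against 13.2% of all genes. Non-overlapping groups were found for 3 of 9 members and for 6.59% of all genes. In DIO-LFD, Cfb had 0.70 times and Cfd 1.76 times the DIO-HFD level. Again 0 of 9 passed the adjusted threshold (0% of all genes), the unadjusted P value was below 0.05 for 2 members, Cfd (higher) and Cfb (lower), against 8.53% of all genes, and 1 had groups that did not overlap, against 4.51%. Limma-voom gave 0 and 3 members in DIO-VSG and 0 and 2 in DIO-LFD at these thresholds. The median log2 fold change of the members was −0.54 in DIO-VSG and −0.0029 in DIO-LFD, with 0.02 and 0.0088 over all genes.

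Giving the libraries unequal weights was the setting that changed the counts past the adjusted threshold. Under limma's library weights, 4 of 9 members (Cfb, C4b, C2 and C7, all higher) passed in DIO-HFD against CON-LFD, where 19.8% of all genes passed. In DIO-VSG against DIO-HFD, 2 of 9 (C4b and C2, both lower) passed, with 17.6% of all genes. In that fit DIO-HFD replicate 4 had a weight of 10.9 and the 3 other DIO-HFD libraries weights of 0.22 to 0.48, so the DIO-HFD level rested mostly on 1 mouse. In CON-LFD, replicate 1 had a weight of 2.35 and replicates 2 to 4 weights of 0.38 to 0.56. That CON-LFD mouse had the lowest values of its group for Cfb, C4b, C2 and C7.

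**Figure D2:**
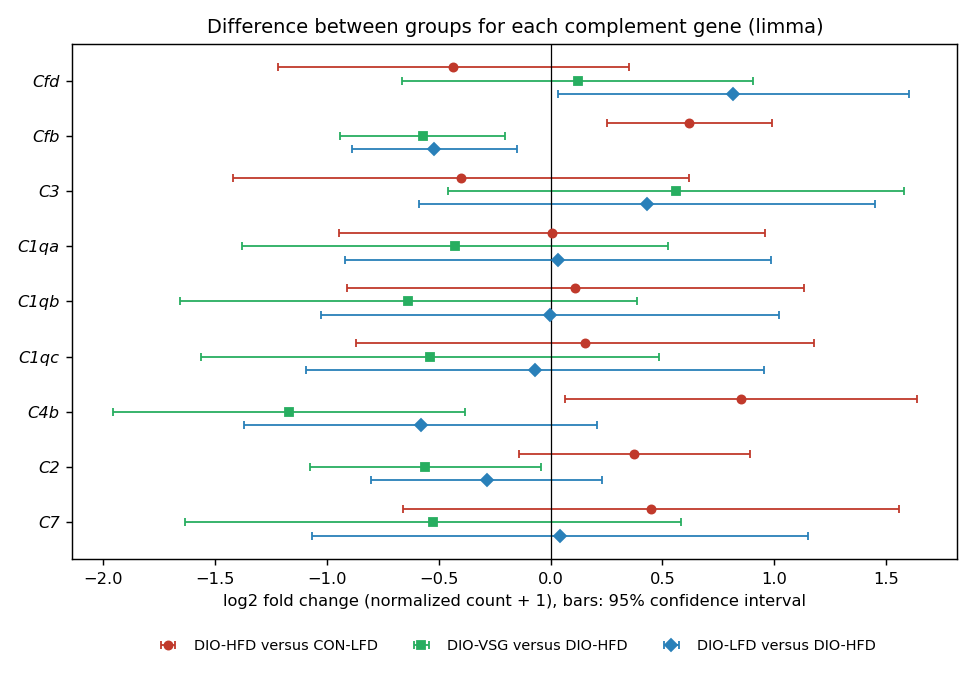
Log2 fold changes (horizontal axis) of the 9 complement genes in the 3 comparisons of the study, with 95% confidence intervals from limma that are not adjusted for the number of genes. Intervals clear of 0 are those of Cfb in all 3 comparisons, of C4b in DIO-HFD versus CON-LFD and DIO-VSG versus DIO-HFD, of C2 in DIO-VSG versus DIO-HFD and of Cfd in DIO-LFD versus DIO-HFD.

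Adipsin (Cfd) cleaves factor B and is made by adipocytes. In CON-LFD it measured 85513, 164318, 136881 and 140401 normalized counts in replicates 1 to 4, and in DIO-HFD 57053, 170118, 81846 and 101915. In DIO-LFD the values were 239429, 182680, 197487 and 90272, and in DIO-VSG 117925, 65811, 134473 and 108545. In DIO-LFD, 3 mice had the 3 highest values of all 16, but the fourth was below the DIO-HFD mean of 102733 ± 48526 (SD, n = 4), so the groups overlapped. The log2 fold change of DIO-LFD against DIO-HFD was 0.82 (SE 0.37, 95% confidence interval 0.03 to 1.60, limma adjusted P = 0.570). With a library left out it ranged from 0.57 (without DIO-HFD replicate 1) to 1.11 (without DIO-LFD replicate 4), and its unadjusted P value stayed below 0.05 in 9 of 16 fits. Under the alternatives that kept every library, the unadjusted P value stayed below 0.05 in 8 of 13. The exact permutation test of the 4 against 4 libraries, two-sided, gave P = 0.114. In DIO-HFD against CON-LFD the log2 fold change was −0.43 (SE 0.37, limma adjusted P = 0.661) and in DIO-VSG against DIO-HFD 0.12 (SE 0.37, limma adjusted P = 0.879, with intervals that reach −1.22 and 0.91). With a library left out the first of these ranged from −0.72 (without DIO-HFD replicate 2) to −0.19 (without DIO-HFD replicate 1), and with library weights it was −0.058. The second ranged from −0.12 (without DIO-HFD replicate 1) to 0.40 (without DIO-HFD replicate 2). Adipocyte markers had a median log2 difference of 0.40 in DIO-LFD against DIO-HFD, with 11 of 12 higher and 0 past the adjusted threshold. Markers of mammary epithelium (median 0.90, 6 of 8 higher) and skeletal muscle (median 1.99, 8 of 8 higher) differed beside them, as did B cell (median 1.52, 10 of 10 higher), T cell (median 0.87, 10 of 10 higher), hepatocyte (median 1.45, 5 of 5 higher), follicular dendritic cell and lymph node stroma (median 1.36, 5 of 6 higher) and stromal progenitor markers (median −0.44, 10 of 10 lower), all with 0 past the threshold. The sum of the skeletal muscle markers was 132452 normalized counts in DIO-LFD replicate 4, the mouse with the lowest Cfd of its group. It was 1383, 1825 and 1704 in DIO-LFD replicates 1 to 3 and 827 to 3164 in DIO-HFD. Apart from the scores used as covariates, the part of these marker lists in the Cfd difference was not tested. Over the 16 libraries, Cfd had r = 0.58 with the adipocyte score (permutation P = 0.0169, adjusted 0.0593 over 36 relations) and rho = 0.40 (permutation P = 0.126, adjusted 0.323), and r was 0.38 without the 2 libraries farthest from the median score. The score is the mean over the markers of the log2 value minus that gene's mean. With the adipocyte score as a covariate, the Cfd difference was 0.58 (SE 0.35, limma adjusted P = 0.424).

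Factor B (Cfb) carries the protease of the alternative pathway and was the member with the smallest standard error. It measured 7296, 7443, 11772 and 11233 normalized counts in the CON-LFD mice, against 13093, 15233, 17446 and 11500 in the DIO-HFD mice. In DIO-LFD it measured 8860, 9897, 11131 and 9691, and in DIO-VSG 10359, 9970, 7965 and 9980. All 4 DIO-HFD mice were above all 8 mice of the weight loss groups, while 1 CON-LFD mouse exceeded the lowest DIO-HFD mouse. The log2 fold change was 0.62 in DIO-HFD against CON-LFD (SE 0.17, limma adjusted P = 0.215), −0.57 in DIO-VSG against DIO-HFD (SE 0.17, limma adjusted P = 0.273) and −0.52 in DIO-LFD against DIO-HFD (SE 0.17, limma adjusted P = 0.463). Exact permutation tests of 4 against 4 libraries gave P = 0.0571, 0.0286 and 0.0286, and 0.0286 is the smallest value that this design allows. The exact P values of the members are not adjusted for the 54 such tests computed. The group means were 9436 ± 2397, 14318 ± 2586, 9895 ± 938 and 9568 ± 1084 (SD, n = 4) in lean controls, obese mice, and the diet and surgery weight loss groups, in this order. With a library left out, each difference kept its direction, and its unadjusted P value stayed below 0.05 in 16 of 16 fits in all 3 comparisons. When the B cell score entered the fit, the 3 differences were 0.63, −0.54 and −0.50, and with the macrophage score 0.55, −0.42 and −0.49. With library weights they were 0.53, −0.32 and −0.21, and the last of these had an unadjusted limma P value of 0.105.

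C3, on which both pathways act, varied more among DIO-HFD mice than between groups. It measured 97309, 26372, 18062 and 68295 normalized counts in DIO-HFD, a 5.39-fold range, and 48057, 34171, 78097 and 75076 in CON-LFD. In DIO-LFD the values were 35843, 62501, 75728 and 61983, and in DIO-VSG 46478, 100662, 63796 and 49986. All groups overlapped. The log2 fold change was −0.40 (95% confidence interval −1.42 to 0.62) in DIO-HFD against CON-LFD, 0.56 (−0.46 to 1.58) in DIO-VSG against DIO-HFD and 0.43 (−0.59 to 1.45) in DIO-LFD against DIO-HFD, with limma adjusted P = 0.773, 0.549 and 0.911. Leaving out DIO-HFD replicate 3 moved these values to 0.0067, 0.15 and 0.03, and leaving out DIO-HFD replicate 1 to −0.80, 0.96 and 0.83. The 2 low DIO-HFD libraries, replicates 2 and 3, were those with few B cell transcripts.

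Across the 16 libraries, C3 was followed against the scores of the marker lists. This family had 36 relations, of the 9 members with scores of macrophages, adipocytes, stromal progenitors and B cells. C3 was lower where the adipocyte score was higher (r = −0.60, permutation P = 0.0148, adjusted 0.0593; rho = −0.65, permutation P = 0.00754, adjusted 0.0452). Without the 2 libraries farthest from the median adipocyte score r was −0.73, and within groups, from deviations from group means, −0.80. With the B cell score, C3 had r = 0.66 over the 16 libraries (permutation P = 0.00664, adjusted 0.0449) and rho = 0.61 (permutation P = 0.0148, adjusted 0.0762). Without the 2 libraries farthest from the median B cell score r was 0.42, and from deviations from group means 0.72. The B cell scores fell into separate clusters of 4 and 12 libraries, so the relation with C3 was also taken within the 12, a choice made after seeing the data. There r was 0.61 (permutation P = 0.0374, not adjusted), rho was 0.47 (permutation P = 0.126), and r without the 2 libraries farthest from the median was 0.18, so the relation within the 12 rests on those 2. C3 ranged from 18062 to 75076 in the 4 libraries and from 35843 to 100662 in the 12. When the adipocyte score entered the fit, the C3 differences in the 3 comparisons were −1.06, 0.54 and 0.93, with limma adjusted P = 0.172, 0.276 and 0.210, and with the B cell score −0.65, −0.015 and 0.13.

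**Figure D3:**
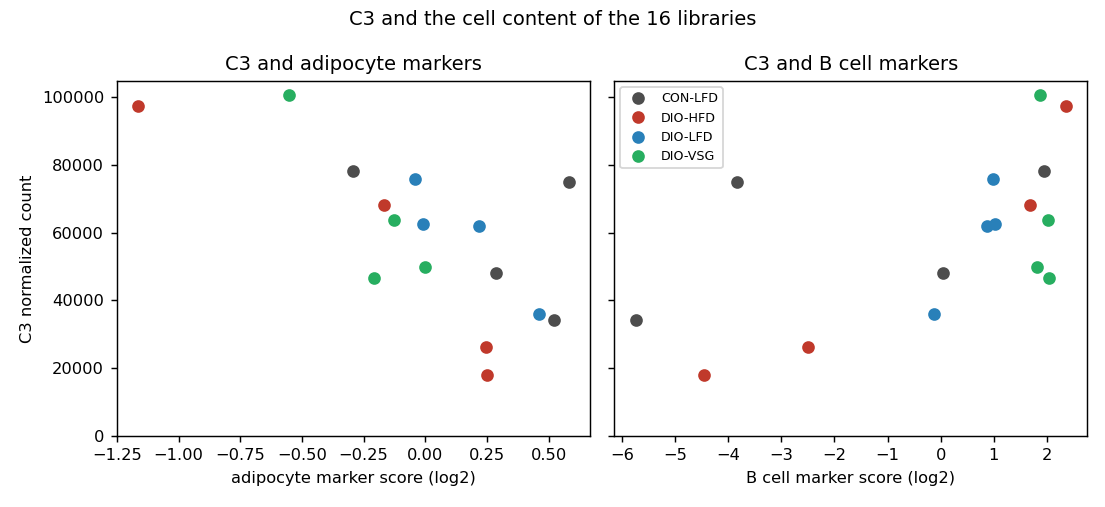
C3 in normalized counts (linear axis from 0) against the adipocyte marker score (left) and the B cell marker score (right), on a log2 scale. Each point is 1 of 16 libraries, coloured by group. The highest C3 values, 100662 and 97309, belong to the libraries with the 2 lowest adipocyte scores, and the lowest, 18062, to a DIO-HFD library with a B cell score of −4.46.

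The 3 C1q chains, which assemble into 1 recognition molecule, moved together from mouse to mouse. C1qa measured 4751, 2232, 5212 and 14173 normalized counts in CON-LFD mice, 6190, 6020, 3710 and 5737 in DIO-HFD, 6380, 3848, 7125 and 4976 in DIO-LFD, and 2697, 6509, 2883 and 4800 in DIO-VSG. CON-LFD held both the highest library (replicate 4) and the lowest (replicate 2) of all 16, a 6.35-fold range. C1qb ran from 2153 to 15079 and C1qc from 2042 to 15760, with the same 2 libraries at the ends. Pearson's r on the log2 scale was 0.989 between C1qa and C1qb, 0.993 between C1qa and C1qc and 0.990 between C1qb and C1qc, and Spearman's rho 0.979, 0.982 and 0.971. From deviations from group means r was 0.992, 0.996 and 0.993. These correlations over 16 libraries are given as a description, since the chains are neighbours and were grouped for their known role.

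No C1q chain passed the test between groups. The log2 fold changes of C1qa, C1qb and C1qc were 0.0045, 0.11 and 0.15 in DIO-HFD against CON-LFD, −0.43, −0.64 and −0.54 in DIO-VSG against DIO-HFD, and 0.03, −0.0029 and −0.07 in DIO-LFD against DIO-HFD. Their SE was 0.44 to 0.48 and the limma adjusted P values were 0.503 to 0.999. The value in DIO-HFD against CON-LFD turned on single mice: for C1qb it was −0.29 without CON-LFD replicate 2 and 0.64 without CON-LFD replicate 4. In DIO-VSG against DIO-HFD, leaving out 1 DIO-VSG mouse moved C1qa between −0.67 and −0.24, C1qb between −0.92 and −0.43 and C1qc between −0.78 and −0.36, the lower ends without replicate 2 and the upper ends without replicate 1. Under DIO-VSG the 95% confidence interval of C1qb ran from −1.66 to 0.39.

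The balance of the chains varied far less than their levels, from 0.913 to 1.19 for C1qa over C1qb and from 0.948 to 1.23 for C1qc over C1qb. C1qa over C1qb was 1.06 ± 0.091 in CON-LFD, 0.983 ± 0.074 in DIO-HFD, 1.01 ± 0.039 in DIO-LFD and 1.14 ± 0.074 in DIO-VSG (SD, n = 4). C1qc over C1qb was 1.06 ± 0.085, 1.09 ± 0.047, 1.04 ± 0.029 and 1.17 ± 0.074 in the same order. These are ratios of normalized counts, not corrected for transcript length. Of 12 exact permutation tests of the ratios (2 ratios, 6 pairs of groups, two-sided), the smallest P was 0.0571, for both ratios in DIO-VSG against DIO-LFD, with an adjusted P of 0.343.

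The C1q chains followed the macrophage markers, a list of 12 genes that holds no complement member. Pearson's r with the macrophage score was 0.933 for C1qa, 0.967 for C1qb and 0.957 for C1qc, and Spearman's rho 0.876, 0.912 and 0.885. The permutation P of each r was 1e-05, the smallest that 100000 permutations can give (adjusted 0.00012 over the 36 relations). Without the 2 libraries farthest from the median score r was 0.874, 0.946 and 0.926, and from deviations from group means 0.953, 0.973 and 0.965. Macrophage markers had median log2 differences of 0.34, −0.65 and −0.15 in the 3 comparisons, in the order given for the C1q chains, with 0 of 12 past the adjusted threshold each time. With the macrophage score as a covariate, the C1qb differences were −0.28, 0.19 and 0.16.

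**Figure D4:**
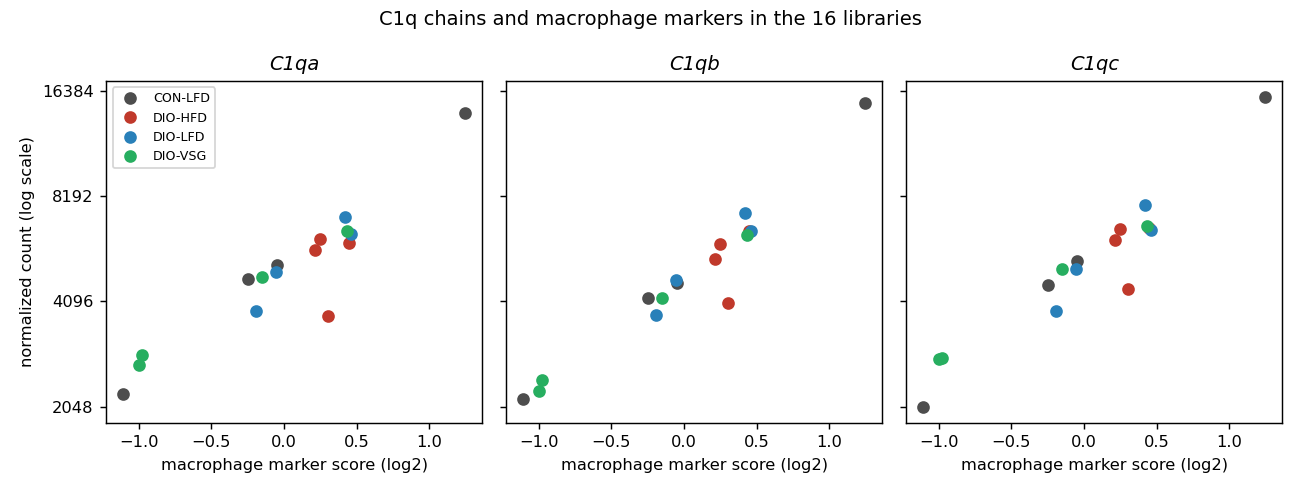
C1qa, C1qb and C1qc in normalized counts (log axis) against the macrophage marker score (log2). Each point is 1 of 16 libraries, coloured by group. In all 3 plots the counts run from low to high between CON-LFD replicate 2 (score −1.11) and CON-LFD replicate 4 (score 1.25).

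C4b and C2, which form the C3-cleaving enzyme of the classical pathway, had a like pattern over the groups. C4b measured 16417, 23649, 35165 and 44662 normalized counts in CON-LFD mice, 37111, 86315, 48651 and 41460 in DIO-HFD, 51901, 21794, 44480 and 25636 in DIO-LFD, and 27176, 27276, 14738 and 23066 in DIO-VSG. Every DIO-VSG mouse was below every DIO-HFD mouse, while CON-LFD and DIO-LFD overlapped with both. The log2 fold change of C4b in DIO-VSG against DIO-HFD was −1.17 (SE 0.37, 95% confidence interval −1.96 to −0.38, limma adjusted P = 0.274), with an exact permutation P of 0.0286. It kept an unadjusted P value below 0.05 in 16 of 16 fits with a library left out, from −1.32 to −0.91. In DIO-HFD against CON-LFD it was 0.85 (SE 0.37, limma adjusted P = 0.353, exact permutation P = 0.114) and in DIO-LFD against DIO-HFD −0.58 (SE 0.37, limma adjusted P = 0.75). Without DIO-HFD replicate 2 these values were 0.59 and −0.32. The second was −0.37 without DIO-LFD replicate 2, and also −0.37 with library weights. The first kept its direction, and its unadjusted P value stayed below 0.05 in 12 of 16 fits with a library left out. Under the alternatives that kept every library, that P value stayed below 0.05 in 10 of 13.

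C2 measured 2235, 2907, 3773 and 4005 normalized counts in CON-LFD mice, 3244, 6353, 3334 and 4040 in DIO-HFD, 2879, 3552, 4536 and 2715 in DIO-LFD, and 3171, 3183, 2201 and 2637 in DIO-VSG. The lowest DIO-HFD mouse, at 3244, was only just above the highest DIO-VSG mouse, at 3183. The log2 fold change was −0.56 in DIO-VSG against DIO-HFD (SE 0.24, limma adjusted P = 0.355, exact permutation P = 0.0286), and −0.35 without DIO-HFD replicate 2, where the unadjusted P value was 0.139. With a library left out, the unadjusted P value of this difference stayed below 0.05 in 12 of 16 fits. The log2 fold change of C2 was 0.37 (limma adjusted P = 0.542) in DIO-HFD against CON-LFD and −0.29 (limma adjusted P = 0.849) in DIO-LFD against DIO-HFD, and without DIO-HFD replicate 2 these values were 0.16 and −0.072.

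In DIO-VSG against DIO-HFD, marker lists of other cells moved beside C4b, Cfb and C2. Macrophage markers were lower for 11 of 12 genes (median −0.65), stromal progenitor markers for 9 of 10 (median −0.81) and endothelial markers for 7 of 7 (median −0.55), while B cell markers were higher for 10 of 10 (median 2.72) and T cell markers for 10 of 10 (median 2.27). Markers of follicular dendritic cells and lymph node stroma were higher for 5 of 6 (median 2.65), of skeletal muscle for 7 of 8 (median 1.63) and of mammary epithelium for 6 of 8 (median 0.36). The sum of the skeletal muscle markers was 21600 normalized counts in DIO-VSG replicate 2. It was 2265, 437 and 3003 in DIO-VSG replicates 1, 3 and 4 and 827 to 3164 in DIO-HFD. None of the genes of these marker lists passed the adjusted threshold. With the macrophage score as a covariate, the differences were −0.78 for C4b, −0.42 for Cfb and −0.39 for C2, with unadjusted limma P values of 0.0393, 0.0298 and 0.149. With the B cell score they were −0.998, −0.54 and −0.52, with unadjusted limma P values of 0.0247, 0.0139 and 0.0723.

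Over the 16 libraries r on the log2 scale was 0.83 between C4b and C2, 0.75 between Cfb and C4b and 0.69 between Cfb and C2, and rho 0.69, 0.69 and 0.74. From deviations from group means r was 0.74, 0.61 and 0.59. Without the 2 libraries farthest from the median of the first gene, r was 0.64, 0.66 and 0.74. The values are a description, with no test, of genes that share libraries, a chromosomal neighbourhood and, for Cfb and C2, an overlapping gene model. C4b was also related to the macrophage score (r = 0.68, permutation P = 0.00374, adjusted 0.0337; rho = 0.84, permutation P = 7e-05, adjusted 0.00063).

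**Figure D5:**
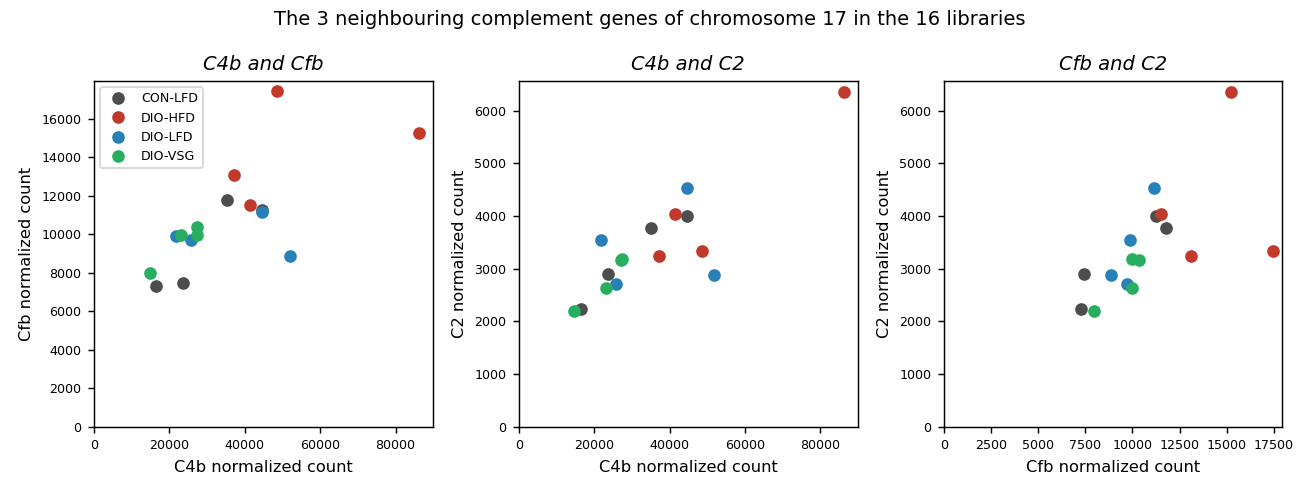
Normalized counts (linear axes from 0) of C4b, Cfb and C2 against each other. Each point is 1 of 16 libraries, coloured by group. The 4 DIO-VSG libraries lie at or below 27276 for C4b, and DIO-HFD replicate 2, with 86315 for C4b and 6353 for C2, is the highest library for both genes.

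C7, of the terminal complex, was the least abundant member. It measured 67.3, 127, 223 and 296 normalized counts in CON-LFD mice, 366, 107, 175 and 289 in DIO-HFD, 373, 150, 276 and 144 in DIO-LFD, and 116, 304, 102 and 128 in DIO-VSG. All groups overlapped, and the log2 fold changes were 0.45 (SE 0.52, limma adjusted P = 0.764), −0.53 (SE 0.52, limma adjusted P = 0.604) and 0.04 (SE 0.52, limma adjusted P = 0.994) in the 3 comparisons. The first of these ranged from 0.05 without CON-LFD replicate 1 to 0.77 without DIO-HFD replicate 2, and was 1.43 with library weights. The second was −0.26 without DIO-HFD replicate 1, −0.88 without DIO-VSG replicate 2 and −1.03 with library weights. C7 was related to the macrophage score (r = 0.64, permutation P = 0.00749, adjusted 0.0449; rho = 0.69, permutation P = 0.00456, adjusted 0.0328).

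In the 3 remaining pairs of groups, 0 of 9 members passed the adjusted threshold by limma or limma-voom, and 0 had an unadjusted P value below 0.05. All genes tested gave 0% and 9.71% at these thresholds in DIO-VSG against DIO-LFD, 0% and 17.8% in DIO-VSG against CON-LFD, and 0.00471% and 6.26% in DIO-LFD against CON-LFD. The background depended on the fit. With only the 8 libraries of the pair, DIO-VSG against DIO-LFD gave 1533 and 5364 of 21218 genes at these thresholds, and 0 of 9 members at either.

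The rest of the pathway was read from 54 other complement symbols, of which 45 were listed and 38 tested. None of the 38 passed the adjusted threshold in any of the 6 comparisons. The unadjusted P value was below 0.05 for 6 of them in DIO-HFD against CON-LFD (4 higher, 2 lower), 7 in DIO-VSG against DIO-HFD (1 higher, 6 lower) and 3 in DIO-LFD against DIO-HFD (all lower). The median log2 fold changes of the 38 were 0.25, −0.31 and −0.12. Of all genes tested, 12.9%, 13.2% and 8.53% had such a P value in the 3 comparisons, so the counts of 6, 7 and 3 of 38 were near this background. Groups that did not overlap were found for 1, 3 and 1 of the 38, against 4.76%, 6.59% and 4.51% of all genes. The 12 receptors all had log2 fold changes above 0 in DIO-HFD against CON-LFD (median 0.45), with 0 at an unadjusted P value below 0.05, although the mean normalized counts of C3ar1 and Itgam were lower in DIO-HFD.

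Among regulators, Cfi, a protease that inactivates cleaved C3 and C4, had means of 12.4 ± 7.25 normalized counts in the CON-LFD mice and 40.8 ± 5.03 in the DIO-HFD mice (SD, n = 4), with groups that did not overlap (log2 fold change 1.77, SE 0.48, limma adjusted P = 0.215). Serping1, the inhibitor of the C1 proteases, averaged 12336 ± 7954 in CON-LFD, 19298 ± 4681 in DIO-HFD, 11575 ± 3277 in DIO-LFD and 8621 ± 2955 in DIO-VSG. Its log2 fold change in DIO-VSG against DIO-HFD was −1.19 (SE 0.36, limma adjusted P = 0.274), again with no overlap. Susd4, an inhibitor of complement activation, was at 130 ± 25.5 in DIO-HFD, 66.3 ± 12.7 in DIO-VSG and 63.3 ± 16.9 in DIO-LFD, with log2 fold changes of −0.97 and −1.05 (limma adjusted P = 0.282 and 0.456). Cfp, which stabilizes the C3-cleaving enzyme of the alternative pathway, was at 3649 ± 1200 in DIO-HFD and 2911 ± 800 in DIO-VSG (log2 fold change −0.29, limma adjusted P = 0.772). Vtn, which binds the terminal complex, had a log2 fold change of 0.67 and Cpn2, of the carboxypeptidase that inactivates C3a and C5a, of −3.06 in DIO-HFD against CON-LFD (limma adjusted P = 0.298 and 0.266), and Cpn2 rested on few reads in DIO-HFD (3.93 ± 3.06 normalized counts) and varied widely in CON-LFD (76.6 ± 107). Against DIO-HFD, Cpn2 had log2 fold changes of 2.27 in DIO-LFD and 2.46 in DIO-VSG (limma adjusted P = 0.597 and 0.361).

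Of the receptors, C3ar1 and C5ar1, for the fragments C3a and C5a, had log2 fold changes of −1.51 and −1.13 in DIO-VSG against DIO-HFD (limma adjusted P = 0.387 for both). Lrp1, a large endocytic receptor, was at 56530 ± 17024 in DIO-HFD and 30371 ± 6735 in DIO-VSG (log2 fold change −0.87, limma adjusted P = 0.274), and Cd93 at 7944 ± 3610 and 3908 ± 344 (−0.92, limma adjusted P = 0.289). Itgax, a subunit of complement receptor 4, had a log2 fold change of −0.71 in DIO-LFD against DIO-HFD (limma adjusted P = 0.543). In the lectin and classical pathways, Masp2 and Colec11 had log2 fold changes of −0.75 and 0.52 in DIO-HFD against CON-LFD (limma adjusted P = 0.35 and 0.354), Colec11 one of −0.53 in DIO-LFD against DIO-HFD (limma adjusted P = 0.541), and C1ra values of 0.17, −0.33 and −0.30. Hc, which encodes C5, had values of −0.26, 0.16 and 0.13.

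The genes most like each member over the 16 libraries were found by Pearson's r on the log2 scale among 16037 genes, leaving out predicted genes. For Cfd these included Net1 (r = 0.84), Slc1a3, Hoxb4 and St6galnac5 (0.82). Cfb was most like Mapk7 (0.93), Tln1, Bmp2, Slc8a1 and Ehd3 (0.89). Those for C3 included Foxred2 (0.93), Foxp2, Dpp6 and Rps6ka1 (0.89). Beside each other, the first 5 genes of all 3 C1q chains held Alox5ap (0.952 to 0.973), which encodes an activator of leukotriene synthesis in myeloid cells, and Fcgr3 (0.938 to 0.971), an antibody receptor. Aoah stood among the first 5 for C1qa and C1qb (0.957 and 0.954), and Lrrc25 for C1qc (0.957). C4b was most like Thbs2 (0.96), a matrix glycoprotein, then Mpp3, Lhfpl4, Pnp2 and Sulf1 (0.88). C2 was most like Lhfpl4 (0.85), Mill2, C4b (0.83), Arl10 and Meiob (0.81). For C7 the first was Plekhm2 (0.89), then Nagpa, Dhx34, Tpbgl and Slc23a2 (0.81). From deviations from group means, r was 0.94 for C3 with Foxred2, 0.96 for C4b with Thbs2 and 0.90 for Cfb with Mapk7. These r were picked as the highest of 16037 in the same libraries and are a description.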

How the data were processed

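The authors prepared stranded total RNA libraries. Their methods name STAR 2.4.2 and salmon 0.1.19, whereas the submitters' processing notes name TopHat2 2.0.7 and HTSeq 0.5.3p9, both with mm10 (GRCm38), and which of these tools made the table was not settled here. The deposited values, named normalized counts by the authors, were on a variance-stabilized log2 scale, between 5.36 and 21.85, and the notes name DESeq2. The transformation was inverted, and dividing by the step of a library gave whole reads for 100.0% of values (relative tolerance 1e-06), with size factors of 0.904 to 1.22. Limma-voom on these reads called 0 genes in all 6 comparisons at the adjusted threshold, where limma-trend called 8 in DIO-HFD against CON-LFD and 1 in DIO-LFD against CON-LFD. The animal number in a column name gave its sample, and 0 columns were left over.

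A pseudocount of 1 was added to the normalized counts before the log2, and limma-trend (R 4.3.3 with limma 3.58.1) was fitted once to the 16 libraries, two-sided, keeping genes that reached 10 normalized counts in 4 or more libraries, with Benjamini-Hochberg adjustment over all genes of a comparison. This scale understates changes of low genes. Exact permutation tests and relations were computed in Python 3.11.15 with numpy 2.4.6, and the ranks for rho came from scipy 1.17.1. The script was tested on simulated data. The members and lists were chosen with earlier results of these data known. Named genes were all members, the 4 other complement genes with the smallest P in each comparison of the study, C3ar1, C5ar1, Cfp, Serping1, C1ra and Hc, and the 5 genes most like each member. Some genes that this rule names are not reported here. Replicates were separate mice, and no batch was given in the labels, so within-batch values were not computed. The alternatives were pseudocount, the deposited log2 values, scaling, filter, only the 8 libraries of a pair, library weights, covariates, a replicate block, voom and leaving out each library. With only the 8 libraries of a pair, 1, 3 and 1 members had an unadjusted limma P value below 0.05 in the 3 comparisons of the study.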

Additional observations from a re-analysis of the deposited data

Results flagged for a closer look

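The values of each member and each C1q chain ratio were examined in every group of 4 libraries, 44 groups in all, by Dixon's test (95% critical value for 4 values) on the gap of the highest or lowest library to the nearest other as a share of the range. By chance about 1 group in 20 has such a library, and here 2 of the 44 did, both in DIO-VSG. Cfb in DIO-VSG replicate 3 measured 7965 normalized counts, while the 3 others lay between 9970 and 10359, a gap of 0.838 of the range. Without this library the log2 fold change of Cfb in DIO-VSG against DIO-HFD was −0.49 (SE 0.18, limma adjusted P = 0.621). C7 in DIO-VSG replicate 2 measured 304 normalized counts, while the 3 others lay between 102 and 128, a gap of 0.871 of the range. Without it the log2 fold change of C7 in DIO-VSG against DIO-HFD was −0.88 (SE 0.52, limma adjusted P = 0.460).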

How the results depend on the processing

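The number of members past the adjusted threshold was 0 in all 6 pairs of groups under each alternative except library weights, which gave 4 in DIO-HFD against CON-LFD and 2 in DIO-VSG against DIO-HFD. Of 783 member fold changes under an alternative in the 3 comparisons of the study, 730 kept their direction and their side of the threshold and 47 turned. None of the 27 fold changes had passed the threshold, and the cause of the turns was not tested. In DIO-HFD against CON-LFD, C3 was 0.34 with library weights, and C1qa was −0.0049 with upper quartile scaling, −0.058 with the B cell score and −0.082 with the adipocyte score. With the macrophage score, C1qa, C1qb and C1qc were −0.35, −0.28 and −0.23. In DIO-VSG against DIO-HFD, C3 was −0.13 with library weights and −0.015 with the B cell score, and C1qa, C1qb, C1qc and C7 were 0.33, 0.19, 0.29 and 0.019 with the macrophage score. In DIO-LFD against DIO-HFD, library weights gave −0.040 for C3, −0.044 for C1qa, 0.015 for C1qb and −0.44 for C7. There, C1qa was −0.043 and C7 −0.046 with the B cell score, C1qb 0.0027 and C7 −0.025 with quantile normalization, C1qb and C1qc 0.16 and 0.095 with the macrophage score, and C1qb 0.027 with the adipocyte score. With a library left out, ranges that crossed 0 in DIO-HFD against CON-LFD were −0.80 to 0.0067 for C3, −0.41 to 0.48 for C1qa, −0.29 to 0.64 for C1qb, −0.30 to 0.68 for C1qc and −0.0081 to 0.085 for the C1qc over C1qb ratio. In DIO-VSG against DIO-HFD the range of Cfd was −0.12 to 0.40. In DIO-LFD against DIO-HFD the ranges were −0.14 to 0.20 for C1qa, −0.15 to 0.17 for C1qb, −0.22 to 0.11 for C1qc and −0.28 to 0.30 for C7. With the replicate number as a block, 0 members passed the adjusted threshold, and 1, 3 and 1 had an unadjusted P value below 0.05 in the 3 comparisons, against 2, 3 and 2, while over all 21218 genes these counts were 2550, 2508 and 1666, against 2735, 2794 and 1809. The numbers were not taken to pair the mice: r of the deviations of same-numbered libraries ran from −0.61 to 0.53 over 24 pairs (median 0.018, against −0.0034 for other pairs), 9 of the 24 were over 0.1, and 7 of 16 libraries, not all, were most like one of their own number. C7 had the fewest reads of the members, at 67.3 to 373 normalized counts.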
